A study of Capra hircus with 2 samples.

Results

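HOX genes encode homeodomain transcription factors that lie in the HOXA, HOXB, HOXC and HOXD clusters of mammalian genomes. Within a cluster the genes are numbered by paralogous group, and in vertebrate embryos low-numbered (anterior) genes are active further towards the head than high-numbered (posterior) genes. In mice, posterior genes such as Hoxa10 pattern the tract that forms beside the gonad, and HOX proteins bind DNA together with TALE cofactors of the PBX and MEIS families.

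The genes described here were chosen by symbol: every annotated feature named HOX, a cluster letter A to D and a number, with nothing after it. This gave 38 of the 27271 features, with 10 in HOXA, 10 in HOXB, 9 in HOXC and 9 in HOXD. HOXA9, which the RefSeq gene table for goat names, was not analysed here. Neighbouring HOX genes overlap as transcription units in mammals, so a molecule assigned to 1 of them may come from its neighbour. The study profiled dissociated ovaries of female goat fetuses (Capra hircus) by droplet single-cell RNA sequencing, which counts captured RNA molecules as unique molecular identifiers (UMIs). It held 1 library of ovary at embryonic stage E125 and 1 library of ovary at embryonic stage E85, and its title places it in the assembly of primordial follicles, when single oocytes become enclosed by supporting cells. No strain, allele or treatment was given for either group, nor the number of fetuses pooled, and the dissociation text speaks of testes while the tissue label of both libraries is ovary. With 1 library per stage there is no replicate and no test: intervals are exact 95% intervals for counting error only, and a stage difference cannot be told apart from a difference between the 2 libraries.

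The E125 library held 8346 barcodes and 49692252 UMIs, and the E85 library held 4397 barcodes and 17748948 UMIs. After removal of low-quality barcodes and likely doublets, 7023 cells at E125 and 3825 at E85 were kept, with median depths of 3193 and 3102 UMIs. The libraries shared 13 barcodes, 9 of them among kept cells. Cells were clustered without the HOX genes and clusters were named from marker genes, so each class is called "-like". Different clusters made up the stromal-like class at the 2 stages, as described below. A further 106 cells at E125 and 220 at E85 stayed unnamed. At E125, 102 of them formed an interferon-gene cluster just under the naming threshold (1.45% of kept cells), while the E85 cluster of that kind was named stromal-like (3.14%).

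The kept cells carried 8629 HOX UMIs at E125 and 2550 at E85. At least 1 UMI was found for 36 of the 38 genes at E125 and for 30 at E85. HOXB5 and HOXD12 had none in either library, 9 genes including these had fewer than 10 UMIs in all, and 19 reached 50. The 12 most counted genes held 91.4% of the HOX UMIs. HOXC4 came first with 2334 UMIs at E125 and 879 at E85, followed by HOXC9 with 1797 and 281 in the same order. The next were HOXB2, HOXC8, HOXD9, HOXA7, HOXD8, HOXD3, HOXA10, HOXC6, HOXB7 and HOXA6. Each captured molecule counts once in this assay, with no division by transcript length, so ranks between genes are ranks of captured molecules.

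Summed HOX levels separated the cell classes. At E125, stromal-like cells had 257 CPM, the UMIs of the genes scaled to 1000000 UMIs of the class (3941 UMIs, interval 249 to 265), germ-cell-like droplets 235 (2371 UMIs, 225 to 245), surface-epithelium-like cells 168 (758 UMIs, 156 to 180), endothelial-like cells 153 (884 UMIs, 143 to 163) and pregranulosa-like cells 56.5 (420 UMIs, 51.2 to 62.2). At E85, stromal-like cells had 235 CPM (1922 UMIs, 225 to 246), endothelial-like cells 104 (61 UMIs, 79.6 to 134), germ-cell-like droplets 103 (175 UMIs, 88.3 to 119), surface-epithelium-like cells 90.2 (205 UMIs, 78.3 to 103) and pregranulosa-like cells 50.5 (91 UMIs, 40.6 to 62.0). Among these classes, stromal-like cells led and pregranulosa-like cells came last at both stages. Glia-like cells, outside the classes compared, stood higher at E125 with 396 CPM (78 UMIs, 313 to 494). The intervals of surface-epithelium-like and endothelial-like cells overlapped at each stage, and at E85 those of germ-cell-like droplets overlapped with both. Blood-derived classes marked the low end, with 14.1 CPM at E125 and 19.7 CPM at E85 in myeloid-like cells, and 6 UMIs (15.0 CPM) among 90 lymphoid-like cells at E125 and 0 UMIs among 26 at E85, where 26 cells allow up to 11.5% with a UMI, a limit on detection and not on expression.

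Shares of cells with a HOX UMI gave the same low end. At E125, 53.0% of stromal-like, 34.2% of pregranulosa-like and 6.48% of myeloid-like cells had any HOX UMI, and at E85 the shares were 44.1%, 26.4% and 10.9%. Stromal-like cells did not lead: surface-epithelium-like, endothelial-like and germ-cell-like shares were 64.7%, 55.4% and 65.9% at E125. At E85 they were 47.7%, 42.4% and 55.1% in the same order. The median depth of the myeloid-like cells was 4523.5 UMIs at E125 and 7500 at E85, above the 2861 and 2764 UMIs of stromal-like cells. With every cell thinned to 2000 UMIs, the stromal-like share was 38.9% at E125 and 33.5% at E85, the pregranulosa-like share 9.31% and 12.4%, and the myeloid-like share 3.49% and 1.85%. Thinned surface-epithelium-like, endothelial-like and germ-cell-like shares were 32.0%, 26.4% and 34.0% at E125 and 19.2%, 13.9% and 24.5% at E85. The stromal-like share stood above the myeloid-like share in each library, before and after thinning. Cells with 2 or more different HOX genes made up 15.9% of stromal-like cells at E125 and 10.53% at E85, against 7.90% and 2.82% of pregranulosa-like cells. Without thinning, this share was larger in surface-epithelium-like (41.9%), endothelial-like (25.1%) and germ-cell-like (57.4%) classes at E125. At E85 it was 15.3%, 14.1% and 27.5% in the same order. All 11 stromal markers were also found in surface-epithelium-like, pregranulosa-like and endothelial-like cells of each library, except for NR2F1, at 0 in E85 pregranulosa-like cells. They summed to 680 CPM at E125 and 934 CPM at E85 in surface-epithelium-like cells, 870 and 406 CPM in endothelial-like cells and 244 and 418 CPM in pregranulosa-like cells, against 8437 and 7225 CPM in stromal-like cells. The part of stromal RNA in the HOX levels of these classes was not tested.

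**Figure D1:**
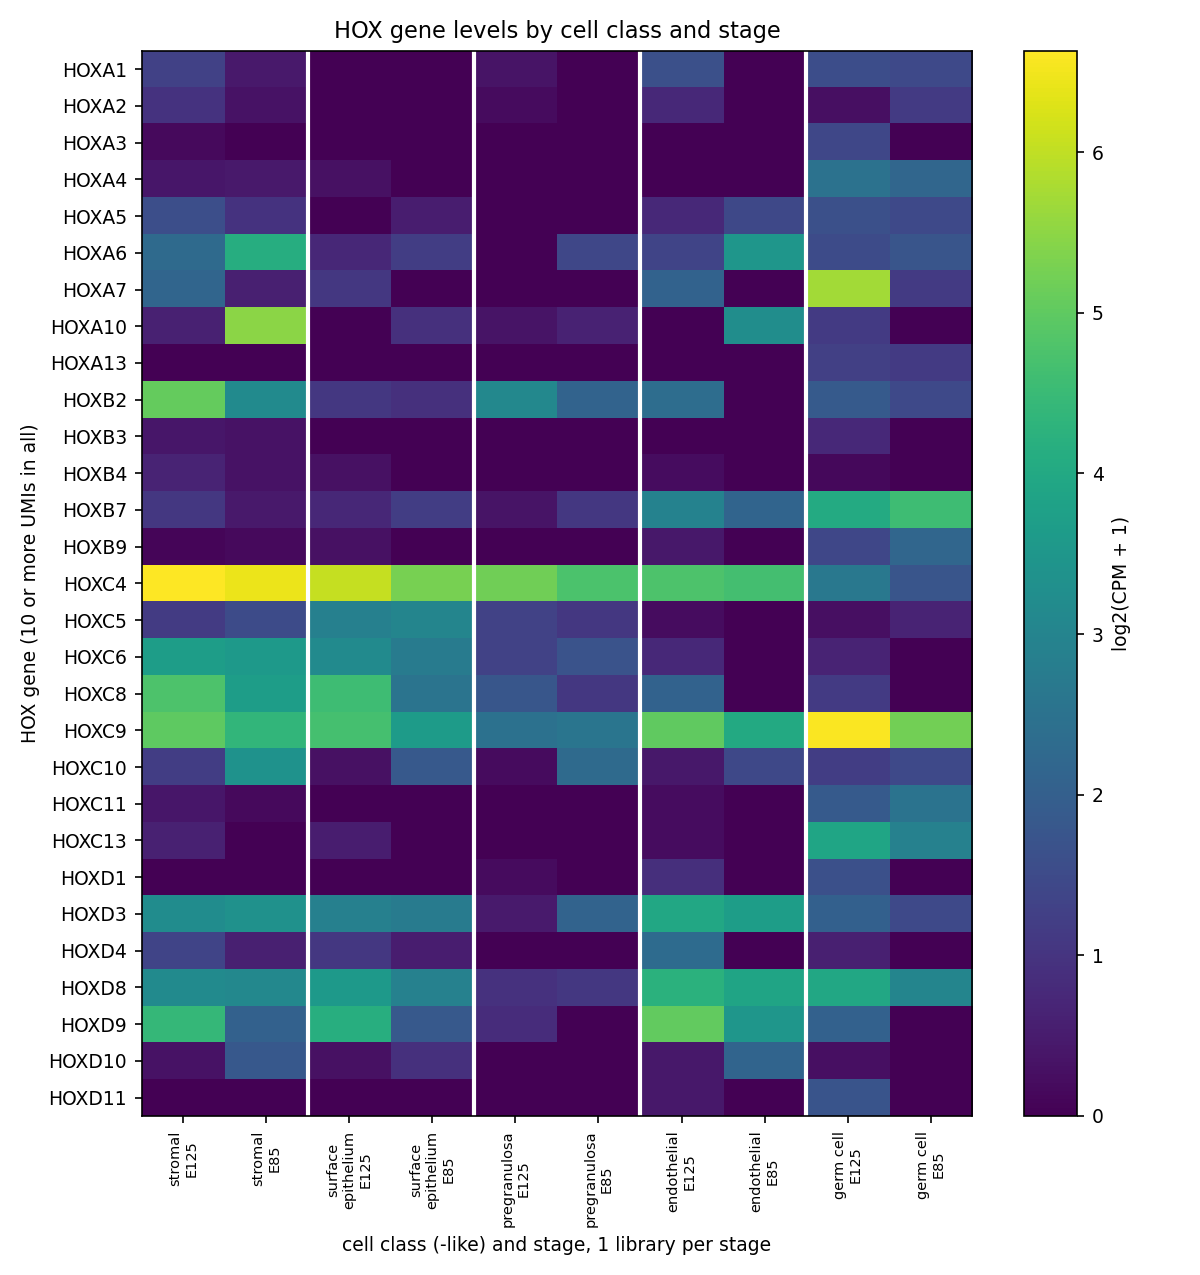
Level of each HOX gene with 10 or more UMIs in all, as log2(CPM + 1), in each cell class (columns, E125 left of E85, 1 library per stage). HOXC4 is bright in the 4 somatic classes shown, HOXC9 and HOXA7 are brightest in E125 germ-cell-like droplets, and HOXA10 is bright in E85 stromal-like cells (43.5 CPM) and near 0 in E125 stromal-like cells (0.521 CPM).

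Stromal-like cells, the fibroblast-rich framework of the ovary, held 4687 cells at E125 and 2755 at E85. Their summed HOX level was close between stages, with a ratio of E125 over E85 of 1.09 (1.03 to 1.15), but the genes behind the sum differed. HOXB2, HOXC8, HOXD9 and HOXA7 were 2-fold or more higher at E125, and HOXA10, HOXA6 and HOXC10 were 2-fold or more lower. These were 4 and 3 of the 12 HOX genes with 50 or more UMIs in the class. Among all 10226 features measured in the class, 17.9% were 2-fold or more higher at E125 and 11.0% were lower. The median log2 ratio was 0.15 over the 12 HOX genes and -0.01 over all features.

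HOXA10, a posterior gene needed for uterus development in mice, had 8 UMIs at E125 (0.521 CPM) and 356 at E85 (43.5 CPM). The E125 level was 83.5-fold lower (41.9 to 195), and HOXA10 took the 19th place among HOX genes at E125 against the 2nd at E85. It was found in 8 of 4687 cells at E125 (0.171%) and in 196 of 2755 at E85 (7.11%). After thinning to 2000 UMIs the shares were 0.139% and 5.66%. In lymphoid-like cells HOXA10 was found in 1 of 90 cells at E125 and 0 of 26 at E85, and in myeloid-like cells in 0 of 108 and 0 of 55. With so few cells, a count of 0 still allows up to 2.78% of the 108 and 5.45% of the 55 myeloid-like cells to carry a UMI, so these shares do not measure the background of the E125 stromal-like share. No E125 stromal-like cell held more than 1 HOXA10 UMI, while an E85 cell held up to 10. Stromal-like cells carried 34.8% of the library's HOXA10 UMIs at E125 and 94.9% at E85.

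HOXC10, known in mice for the identity of lumbar motor neurons, and HOXA6 shared this direction. HOXC10 had 20 UMIs at E125 (1.30 CPM) and 77 at E85 (9.41 CPM), 7.23-fold lower at E125 (4.37 to 12.5). HOXA6 had 60 UMIs at E125 (3.91 CPM) and 134 at E85 (16.4 CPM), 4.19-fold lower at E125 (3.07 to 5.78). HOXD10, with 4 UMIs at E125 and 21 at E85, was below the 50-UMI minimum. Summed over paralogous group 10, there were 32 UMIs at E125 (2.08 CPM) and 454 at E85 (55.5 CPM), 26.6-fold lower at E125 (18.6 to 39.4). Group 10 thus held 0.812% of the stromal-like HOX UMIs at E125 and 23.6% at E85.

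The neighbouring group 9 had the opposite direction, with a ratio of 2.24 (1.91 to 2.65) and shares of 19.9% at E125 and 9.68% at E85. HOXD9, which shapes the forelimb in mice, had 312 UMIs at E125 (20.3 CPM) and 26 at E85 (3.18 CPM), a ratio of 6.39 (4.28 to 9.94). HOXC9, a thoracic gene of the mouse spinal cord, had 470 UMIs at E125 (30.6 CPM) and 159 at E85 (19.4 CPM), a ratio of 1.57 (1.31 to 1.90). HOXD9 and HOXC9 were thus both higher at E125, HOXC9 short of 2-fold. HOXB9, also of group 9, had 1 UMI at each stage.

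HOXB2, an anterior gene of the mouse hindbrain, had 497 UMIs at E125 (32.4 CPM) and 66 at E85 (8.07 CPM), a ratio of 4.01 (3.099 to 5.27). HOXC8 had 405 UMIs at E125 (26.4 CPM) and 98 at E85 (11.98 CPM), a ratio of 2.20 (1.76 to 2.77), and 1 E85 cell held 12 of the 98. HOXA7 had 53 UMIs at E125 (3.45 CPM) and 4 at E85 (0.489 CPM), a ratio of 7.06 (2.60 to 26.9). The shares of cells ran the same way: HOXB2 was found in 9.17% of cells at E125 and 2.14% at E85 (5.44% and 1.62% thinned), and HOXD9 in 6.34% and 0.944% (4.00% and 0.760% thinned).

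The remaining measured genes differed less between the libraries. HOXC4, the most counted gene of the class at both stages, had 1507 UMIs at E125 (98.1 CPM) and 706 at E85 (86.3 CPM), a ratio of 1.14 (1.04 to 1.25). HOXC6 had 11.98 CPM at E125 and 11.1 CPM at E85, a ratio of 1.08 (0.834 to 1.40). HOXD8 had 8.08 and 7.58 CPM in the same order, a ratio of 1.07 (0.779 to 1.47). HOXD3 had 8.27 CPM at E125 and 9.29 CPM at E85, a ratio of 0.890 (0.665 to 1.20). The intervals of HOXC6, HOXD8 and HOXD3 include 1. HOXB7 stayed under the minimum in this class, with 17 UMIs at E125 and 3 at E85.

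Summed by cluster, HOXA was lower at E125, with 12.8 CPM at E125 and 62.5 CPM at E85 (ratio 0.204, 0.172 to 0.241). HOXB was higher, with 34.9 and 9.17 CPM in the same order (ratio 3.81, 2.99 to 4.92). HOXC had a ratio of 1.22 and HOXD of 1.67. Each of these sums rests mostly on the genes named above: HOXA10 for HOXA, HOXB2 for HOXB and HOXC4 for HOXC. By position, anterior genes (groups 1 to 3) had 43.6 CPM at E125 and 18.2 CPM at E85, central genes (groups 4 to 8) 159 and 138 CPM, and posterior genes (groups 9 to 13) 53.9 and 78.5 CPM.

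**Figure D2:**
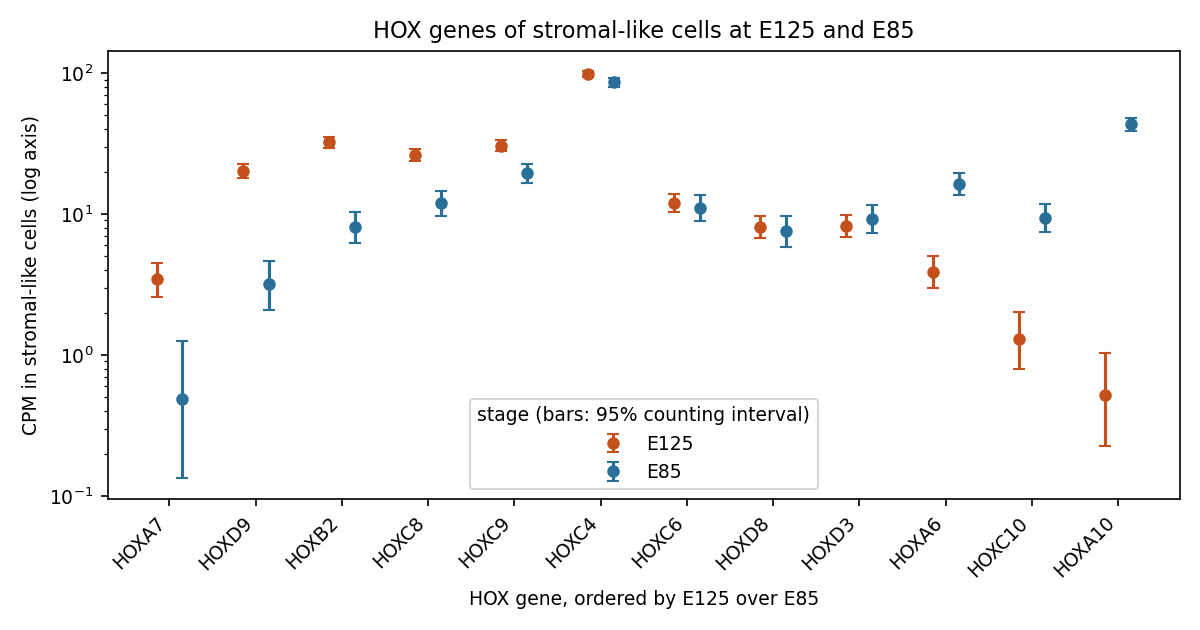
CPM (log axis) of the 12 HOX genes measured in stromal-like cells, E125 left of E85 for each gene, with exact Poisson 95% intervals (1 library per stage), ordered by the ratio of E125 over E85. HOXA7, HOXD9, HOXB2 and HOXC8 on the left are higher at E125, HOXA6, HOXC10 and HOXA10 on the right are lower, and the intervals of HOXC6, HOXD8 and HOXD3 overlap between stages.

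The stromal-like class was made of different clusters at the 2 stages, numbered here as they came from the clustering. At E125 most cells were in cluster 0 (1802 cells, led by COL12A1 and MGP), cluster 1 (1266, CCN3), cluster 5 (696, DLK1 and PENK) and cluster 2 (626, CCL11 and DCN). At E85 most were in cluster 19 (1736, ITIH5 and CA3) and cluster 18 (693, PENK and NPY), with 120 in the interferon-gene cluster 17. Cycling clusters 4 and 7 had cells of both libraries. HOXA10 ranged from 0 to 1.78 CPM over the 6 E125 clusters of 50 or more cells and from 34.2 to 95.8 CPM over the 5 E85 clusters. HOXA6 ranged from 0.851 to 11.3 CPM over the E125 clusters and from 12.6 to 22.7 CPM over the E85 clusters. HOXB2 ranged from 15.1 to 48.7 CPM at E125 and from 5.04 to 10.7 CPM at E85. HOXD9 ranged from 10.7 to 34.4 CPM at E125 and from 0 to 10.1 CPM at E85. These 4 genes stood apart between the stages over the clusters, narrowly for HOXA6 and HOXD9. The share of all features that stand apart in this way was not counted. All 4 were already 2-fold apart over the class in the same libraries, so their ranges add no separate support. Ranges of HOXC8, HOXA7, HOXC10 and HOXC9 are not given here. Clusters of a stage share a library and are not replicates. HOXC4 overlapped between the stages, with 40.6 to 110 CPM at E125 and 52.9 to 92.4 CPM at E85. In the cycling cluster 4, the only E125 cluster with under 200 cells, HOXC4 was lowest at 40.6 CPM, against 85.3 CPM in the E85 cells of that cluster.

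**Figure D3:**
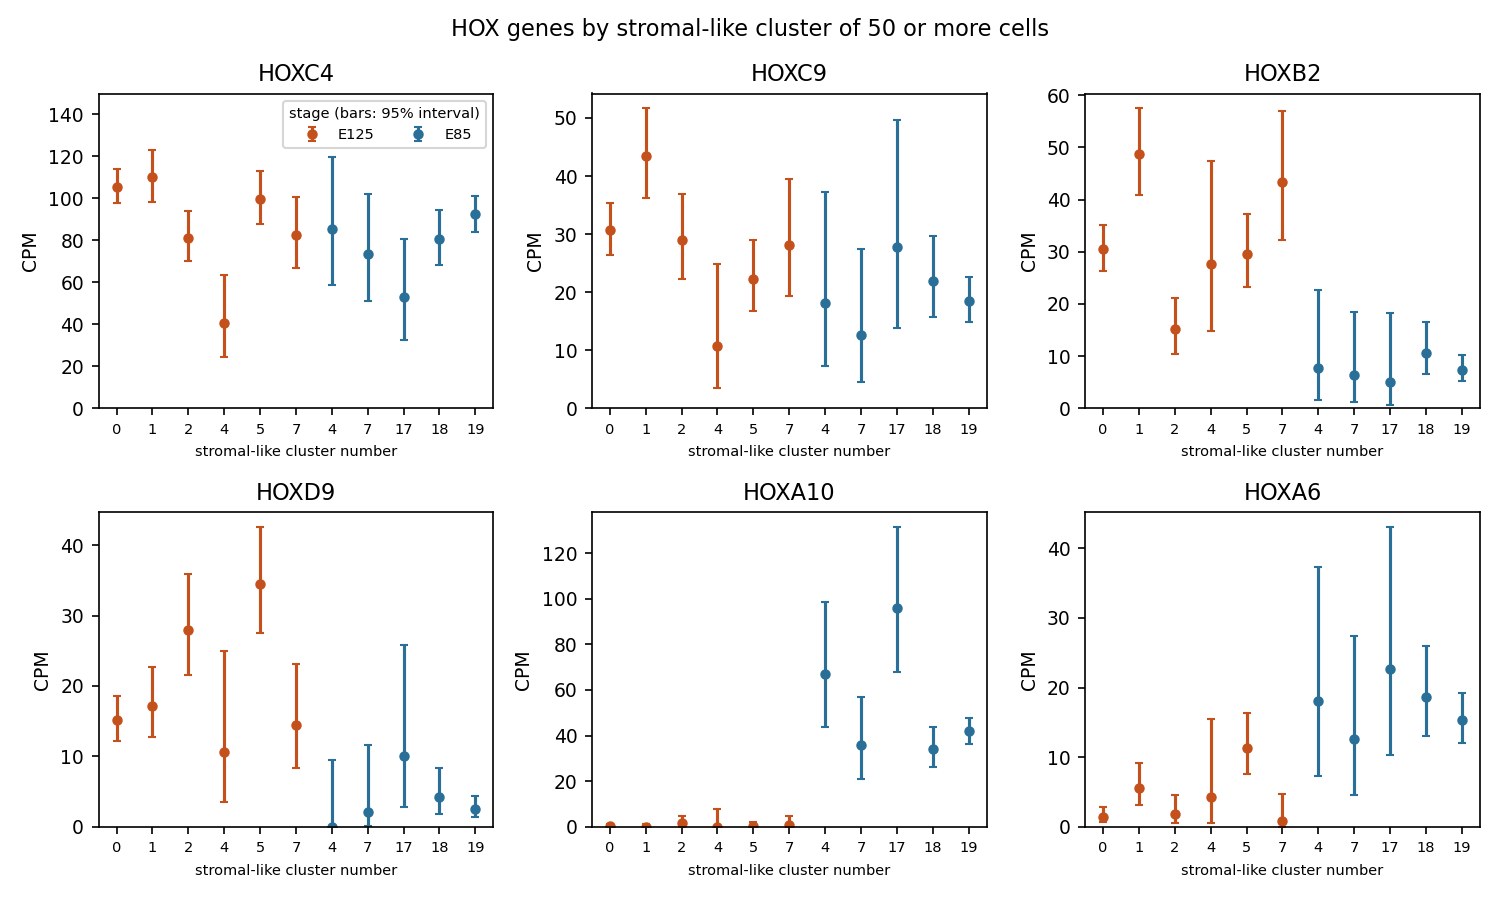
CPM (linear axis) of 6 HOX genes in each stromal-like cluster of 50 or more cells, E125 clusters left of E85 clusters, with exact Poisson 95% intervals. HOXA10 is at most 1.78 CPM in every E125 cluster and at least 34.2 CPM in every E85 cluster, and HOXC4 overlaps between stages.

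The direction of the 7 genes 2-fold apart and of HOXC9 and HOXC4 held under all alternatives that gave them a value. The size of some depended on which cells were called stromal-like: with clusters named by log fold, HOXA10 had a ratio of 0.0307, HOXB2 of 2.14, HOXA6 of 0.365 and HOXC9 of 1.17. HOXC6 had a ratio of 0.815 under that naming, on the other side of 1. With a naming minimum of 0.3, chosen after seeing the data, HOXA6 had a ratio of 0.386.

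Group 10 had few UMIs in the other classes compared. Over surface-epithelium-like, pregranulosa-like and endothelial-like cells group 10 had 2, 3 and 4 UMIs at E125 and 10, 8 and 8 at E85. In endothelial-like cells this was 0.691 CPM at E125 and 13.7 CPM at E85, a ratio of 0.0506 (0.0111 to 0.189). The ratio was 0.100 (0.0107 to 0.472) in surface-epithelium-like cells and 0.0910 (0.01555 to 0.379) in pregranulosa-like cells. The lower E125 level of group 10 was thus seen in all of these classes, on few UMIs. At E85 group 10 had 4.40 CPM in surface-epithelium-like and 4.44 CPM in pregranulosa-like cells, against 55.5 CPM in stromal-like cells. Stromal markers at E85 stood at 0.129, 0.0578 and 0.0562 times the stromal-like level in surface-epithelium-like, pregranulosa-like and endothelial-like cells. The part of stromal RNA in these group 10 values was not tested. Germ-cell-like droplets had 27 group 10 UMIs at E125 and 3 at E85, a ratio of 1.51 (0.466 to 7.80) whose interval includes 1. Perivascular-like cells had HOXA10 in 0 of 134 cells at E125, which allows up to 2.24% with a UMI, and in 3 of 35 at E85 (23.8 CPM), 0.547 times the E85 stromal-like level (0.112 to 1.61).

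Surface-epithelium-like cells, called after the layer that covers the ovary and named from 4 markers abundant enough to score, numbered 320 at E125 and 262 at E85. Epithelial markers summed to 517 CPM in them at E125 and 835 CPM at E85, against 502 and 251 CPM in germ-cell-like droplets. Stromal markers summed to more in the class, at 680 and 934 CPM, so the name is uncertain. Their summed HOX level was higher at E125, with a ratio of 1.86 (1.59 to 2.18). Of 5 HOX genes measured in the class, 3 were 2-fold or more higher at E125 and 0 lower, where all features gave 13.7% and 7.98%. HOXC4 led with 295 UMIs at E125 (65.2 CPM) and 85 at E85 (37.4 CPM), a ratio of 1.74 (1.37 to 2.25). HOXC9 had 111 UMIs at E125 (24.5 CPM) and 26 at E85 (11.4 CPM), a ratio of 2.14 (1.39 to 3.43). HOXC8 had 104 UMIs at E125 (23.0 CPM) and 11 at E85 (4.84 CPM), a ratio of 4.75 (2.55 to 9.81). The third gene past 2-fold was HOXD9, with 76 UMIs at E125 (16.8 CPM) and 6 at E85 (2.64 CPM), a ratio of 6.36 (2.79 to 17.9). HOXC genes held 76.3% of the HOX UMIs at E125 and 76.6% at E85.

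The E125 surface-epithelium-like class joined 2 unlike clusters. Cluster 13 (172 cells, led by ERICH3 and NMB) had 582 HOX UMIs or 202 CPM, and cluster 14 (148 cells, led by KRT7) had 176 UMIs or 107 CPM, a ratio of 1.88 (1.59 to 2.24). HOXC8 had 30.5 CPM in cluster 13 and 9.76 CPM in cluster 14, a ratio of 3.13 (1.82 to 5.71). Their median depths were 9741.5 and 2477.5 UMIs, and the part of depth in this difference was not tested. At E85 the clusters of the same numbers had 99.8 and 81.5 CPM of summed HOX. None of the leading 10 genes of either E125 cluster was a fixed epithelial marker, and the class ratio was 1.34 with the stricter cell filter and 2.99 with no doublet removal. Those settings left 63 and 25 E125 cells in the class, too few for most single genes to reach 50 UMIs.

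Compared with stromal-like cells of the same library, surface-epithelium-like cells had 0.653 times the summed HOX level at E125 (0.604 to 0.706) and 0.384 times at E85. HOXC4 was 0.665 times the stromal-like level at E125 and 0.434 times at E85. At E125 HOXB2 had 5 UMIs in surface-epithelium-like cells against 497 in stromal-like cells and was 29.3-fold lower as CPM.

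Pregranulosa-like cells, the supporting cells that come to surround oocytes (marked by FST, AMH and HSD17B1), numbered 620 at E125 and 284 at E85 and had the lowest summed HOX level of the 5 classes compared. Nearly all were in cluster 8 at E125 (594 cells, led by FST, HSD17B1 and AMH) and in cluster 9 at E85 (279 cells, led by ALPL, SYT6 and FST). The ratio between stages was 1.12 (0.891 to 1.42). HOXC4 alone held 63.1% of their HOX UMIs at E125 and 51.6% at E85. It had 265 UMIs at E125 (35.7 CPM) and 47 at E85 (26.1 CPM), a ratio of 1.37 (1.00 to 1.91). HOXB2 came second at E125 with 56 UMIs (7.54 CPM), against 6 at E85 (3.33 CPM), a ratio of 2.27 (0.978 to 6.43) whose interval includes 1. HOXC9 had 34 UMIs at E125 (4.58 CPM) and 9 at E85 (4.99 CPM). HOXA7 had no UMI at either stage, and HOXA6 had 0 at E125 and 3 at E85. Only 2 HOX genes were measured in the class, 1 of them 2-fold higher and 0 lower at E125, where all features gave 14.3% and 11.3%.

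Against stromal-like cells of the same library, the summed HOX level of the pregranulosa-like class was 0.220 times the stromal-like level at E125 (0.199 to 0.244) and 0.215 times at E85. HOXC4 was 0.363 times the stromal-like level at E125 and 0.302 times at E85. At E125 HOXB2 was 0.233 times that level. The stage ratio turned to 0.789 when cells were thinned to 2000 UMIs, and it was between 1.503 and 1.70 under 4 other settings, so no stage direction is given for this class.

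Endothelial-like cells (753 at E125 and 85 at E85) carried proportionally more HOXD. HOXD genes held 45.9% of their HOX UMIs at E125 and 37.7% at E85. HOXD9 had 184 UMIs at E125 (31.8 CPM) and 6 at E85 (10.2 CPM), a ratio of 3.103 (1.40 to 8.57). HOXC9 had 180 UMIs at E125 (31.1 CPM) and 9 at E85 (15.4 CPM), a ratio of 2.02 (1.04 to 4.50). These were the 2 genes past 2-fold of 5 measured, with 0 lower, where all features gave 20.2% higher and 7.50% lower. HOXC4 had 154 UMIs at E125 (26.6 CPM) and 14 at E85 (23.9 CPM), a ratio of 1.11. HOXD8, known from human and mouse lymphatic vessels, had 17.96 CPM at E125 and 13.7 CPM at E85, and HOXD3, which acts in human endothelial cells, had 14.8 and 11.9 CPM. The class ratio of summed HOX was 1.47 (1.13 to 1.93), resting on 61 E85 UMIs. HOXC9 passed 2-fold by a narrow margin, and the count of higher genes was 1 under 5 alternatives, TMM and DESeq2 scaling among them. After thinning too few UMIs were left for calls, with HOXD9 in 40 of 655 cells at E125 (6.11%) and 0 of 72 at E85, which allows up to 4.17% with a UMI.

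Against stromal-like cells of the same library, the endothelial-like sum was 0.595 times at E125 (0.552 to 0.640) and 0.443 times at E85. At E125, HOXB7 stood at 6.08 times the stromal-like level (3.36 to 11.5), HOXD8 at 2.22 times (1.70 to 2.91) and HOXC4 at 0.271 times. At E85, HOXC4 stood at 0.277 times the stromal-like level.

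Within the E125 endothelial-like class, 61 cells formed a cluster led by CCL21, FLT4 and PROX1, genes of lymphatic endothelium, apart from 692 cells led by CA4 and VWF. Summed HOX levels were close, at 148 CPM in the CCL21 cluster and 153 CPM in the other, but the genes differed. HOXA7 had 15 UMIs in the CCL21 cluster (32.7 CPM) and 4 in the other (0.750 CPM), a ratio of 43.7 (13.9 to 181). HOXB7 had 18 UMIs in the CCL21 cluster (39.3 CPM) and 21 in the other (3.94 CPM), a ratio of 9.98 (5.01 to 19.7). HOXA6 had 7 and 2 UMIs in the same order, a ratio of 40.8 (7.76 to 402). HOXC9 ran the other way, with 2 UMIs in the CCL21 cluster (4.37 CPM) and 178 in the other (33.4 CPM), a ratio of 0.131 (0.0157 to 0.480), and so did HOXD9 with 3 and 181 UMIs, a ratio of 0.193 (0.0394 to 0.573). HOXD8 had 4 UMIs in the CCL21 cluster (8.73 CPM) and 100 in the other (18.8 CPM). Its ratio of 0.466 (0.124 to 1.23) has an interval that includes 1. At E85 only 6 cells formed the CCL21 cluster, too few for the comparison.

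**Figure D4:**
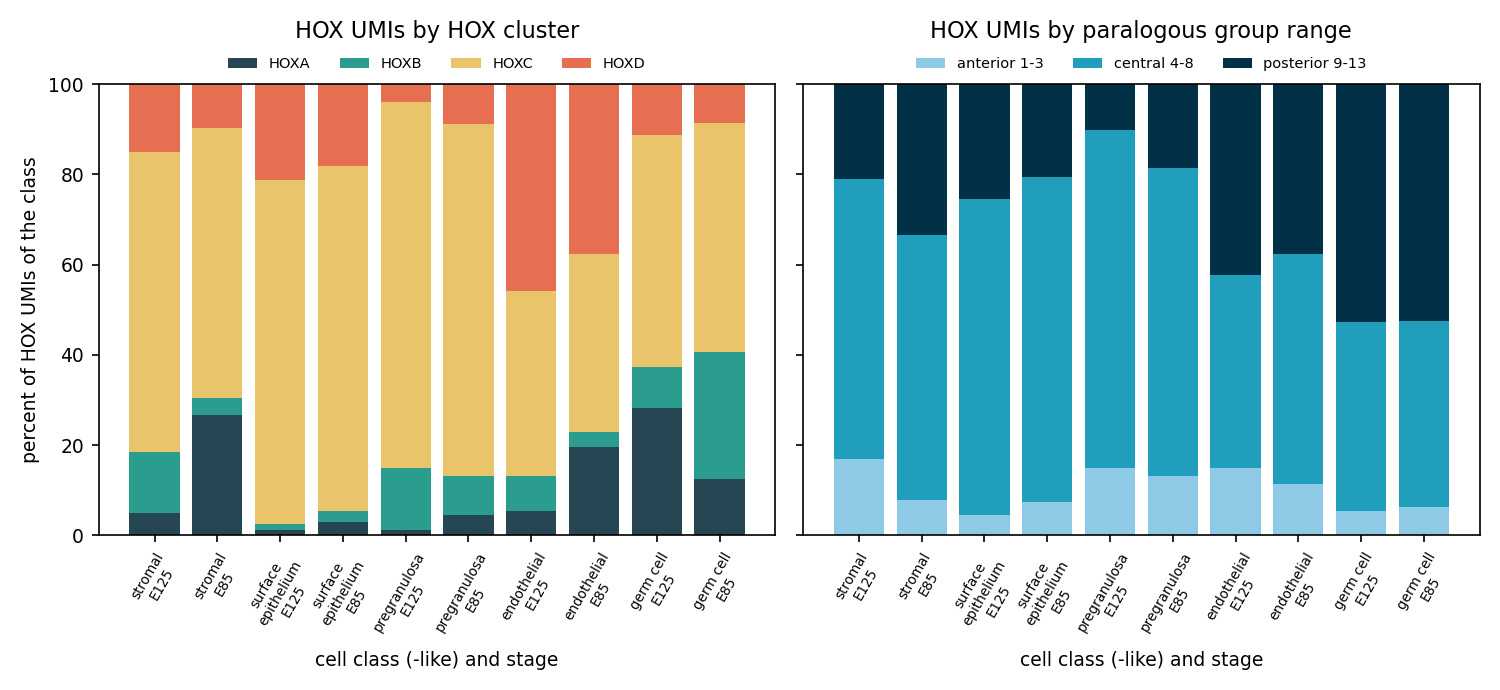
Share of the HOX UMIs of each cell class (percent), by HOX cluster A to D and by position, with E125 left of E85. HOXC holds most HOX UMIs of surface-epithelium-like cells (76.3% and 76.6%) and of pregranulosa-like cells (340 of 420 and 71 of 91 UMIs). HOXD is largest in endothelial-like cells, and the HOXA share of stromal-like cells is smaller at E125 than at E85.

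Germ-cell-like droplets held the most unlike HOX profile. They numbered 129 at E125 and 69 at E85, with median depths of 52865 and 4040 UMIs, and were marked by genes such as ZP3, ZP4 and FIGLA. Their summed HOX level was higher at E125, with a ratio of 2.28 (1.96 to 2.67). Of 7 HOX genes measured, 5 were 2-fold or more higher at E125 and 0 lower, where all features gave 19.2% and 17.8%. HOXC4 is among the 5, although its interval (0.838 to 8.64) spans equal levels. The median log2 ratio was 1.10 over the HOX genes and -0.07 over all features. The class held 10095587 UMIs at E125 and 1699273 at E85, so genes reached the minimum for being measured more easily through E125. How far this raised the HOX count and median was not tested.

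HOXC9 led at both stages, with 965 UMIs at E125 (95.6 CPM) and 62 at E85 (36.5 CPM), a ratio of 2.62 (2.03 to 3.44). HOXA7 had 516 UMIs at E125 (51.1 CPM) and 2 at E85 (1.18 CPM), a ratio of 43.4 (11.96 to 360). HOXB7, its paralog in HOXB, had 158 UMIs at E125 (15.7 CPM) and 39 at E85 (23.0 CPM), a ratio of 0.682 (0.478 to 0.995). HOXA7 and HOXB7 thus had unlike stage ratios although they belong to 1 paralogous group. HOXD8 had 148 UMIs at E125 (14.7 CPM) and 12 at E85 (7.06 CPM), a ratio of 2.08 (1.15 to 4.11). HOXC13, which controls hair keratins in mice, had 140 UMIs at E125 (13.9 CPM) and 11 at E85 (6.47 CPM), a ratio of 2.14 (1.16 to 4.39). HOXC4, the most counted gene in stromal-like, surface-epithelium-like and pregranulosa-like cells, had 54 UMIs at E125 (5.35 CPM) and 4 at E85 (2.35 CPM), with a ratio of 2.27 (0.838 to 8.64) whose interval includes 1.

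Set beside stromal-like cells of the same library, single genes lay on either side. At E125, HOXC13 was 26.6 times the stromal-like level (13.1 to 62.9), HOXA7 14.8 times (11.1 to 20.04), HOXA4 14.3 times (5.71 to 46.1), HOXB7 14.1 times (8.55 to 24.9) and HOXC9 3.12 times (2.79 to 3.49). HOXC4 was 18.3-fold lower, and HOXC6, HOXC8 and HOXB2 stood at 0.0496, 0.0451 and 0.0826 times the stromal-like level. At E85, HOXB7 had 39 UMIs in germ-cell-like droplets (23.0 CPM) and 3 in stromal-like cells (0.367 CPM). HOXA10 had 0 UMIs in the E85 germ-cell-like droplets against 356 in stromal-like cells, at least 24.6-fold lower by the floor of 3 counts.

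Markers of stromal-like cells were also present in these droplets, and they are given beside the HOX values. All 11 stromal markers were found in germ-cell-like droplets at each stage, with a summed level of 169 CPM at E125 and 230 CPM at E85, against 8437 and 7225 CPM in stromal-like cells. The marker sum thus stood at 0.0200 times the stromal-like level at E125 and 0.0318 times at E85, while the HOX sum stood at 0.915 times (0.869 to 0.963) and 0.438 times. For each HOXC4 UMI there were 17.9 HOXC9 UMIs in germ-cell-like droplets at E125 and 15.5 at E85, against 0.312 and 0.225 in stromal-like cells. Germ-cell-like droplets held 18.4 HOX UMIs each on average at E125 and 2.54 at E85, and stromal-like cells 0.841 and 0.698.

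Droplets of 20000 or more UMIs carried most of these counts. There were 70 such droplets at E125 and 22 at E85, with median depths of 140428 and 56360.5 UMIs. A HOX UMI was found in 70 of 70 at E125 and 20 of 22 at E85, with a median of 33 and 4 HOX UMIs and at most 70 and 31. HOXC9 was found in 70 of 70 at E125 and 16 of 22 at E85, and HOXA7 in 66 of 70 and 2 of 22. The 10 deepest droplets gave 22.6% of the HOX UMIs of the class at E125 and 71.4% at E85. Among the large droplets alone, the ratio of summed HOX was 2.32 (1.97 to 2.75), of HOXC9 2.75 and of HOXA7 39.7 (10.9 to 329). The 59 smaller droplets at E125 had 134 CPM of summed HOX (22 UMIs, 83.7 to 202). The 47 at E85 had 114 CPM (18 UMIs, 67.3 to 179), so these intervals overlapped. HOXC9 had 42.5 CPM (7 UMIs) in the smaller droplets at E125 and 50.5 CPM (8 UMIs) at E85. The higher E125 level was thus seen in the large droplets only, with few UMIs in the smaller ones. The mean over droplets, which weights each droplet equally, gave a summed ratio of 1.66, with 2 genes higher and 1 lower. By that mean HOXA7 had a ratio of 133, HOXC13 of 7.30 and HOXC9 of 1.47. After thinning to 2000 UMIs the summed ratio was 1.52. HOXC9 was then left in 13 of 97 droplets at E125 and 4 of 53 at E85, too few UMIs for calls of single genes.

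**Figure D5:**
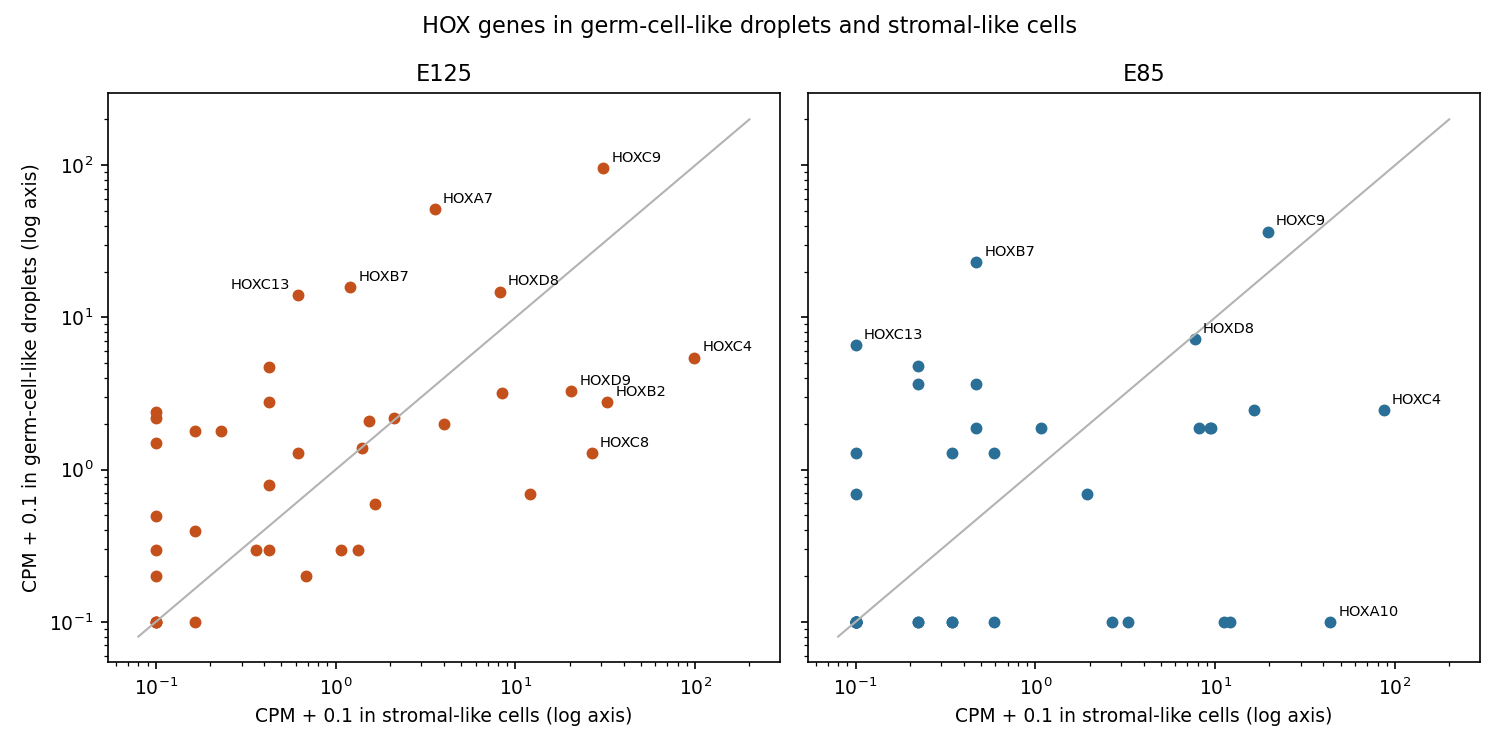
CPM + 0.1 of each HOX gene in germ-cell-like droplets (vertical log axis) against stromal-like cells of the same library (horizontal log axis), E125 left and E85 right, with the line of equal levels. HOXC9 and HOXB7 lie above the line at both stages, HOXC13 far above it at both, HOXA7 far above it at E125, and HOXC4 far below it at both. At E85 HOXC13 had 11 UMIs in germ-cell-like droplets and 0 in stromal-like cells.

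The position of the genes along their clusters summarises the classes. The mean paralogous group of a HOX UMI was 8.02 at E125 and 7.98 at E85 in germ-cell-like droplets, 6.71 and 6.74 in endothelial-like cells, 6.22 and 5.78 in surface-epithelium-like cells, 5.49 and 6.38 in stromal-like cells, and 4.55 and 5.24 in pregranulosa-like cells. Posterior genes held 52.8% of the germ-cell-like HOX UMIs at E125 and 52.6% at E85, against 21.0% and 33.4% in stromal-like cells.

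Genes that work with or on HOX genes were read from lists of cofactors and regulators. In stromal-like cells, 9 of 11 TALE cofactors were measured and 0 were 2-fold higher or lower at E125, with MEIS2 at 151 CPM at E125 and 77.4 CPM at E85 (ratio 1.95) and PBX3 at 61.6 and 59.9 CPM (ratio 1.03). Of 17 measured Polycomb genes, which encode repressors of HOX clusters, 6 were higher and 0 lower, where all features gave 17.9% and 11.0%. They included the H3K27 methyltransferase gene EZH2, with 33.3 CPM at E125 and 9.29 CPM at E85 (ratio 3.59), and its partner SUZ12, with 67.1 and 18.5 CPM (ratio 3.63). Among 11 Trithorax-type activators 3 were higher and 0 lower, beside the same shares over all features, with MEN1 at 46.9 CPM at E125 and 41.1 CPM at E85 (ratio 1.14). The list medians were 0.04 for TALE cofactors, 0.39 for Polycomb and 0.58 for Trithorax-type genes on the log2 scale, beside -0.01 over all features.

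Retinoic acid is a known inducer of HOX transcription, and 13 of the 18 retinoid genes with a feature were measured in stromal-like cells. Of these, 1 was 2-fold or more higher and 1 lower at E125, where all features gave 17.9% and 11.0%, and the median log2 ratio was -0.52. The higher gene was the retinol dehydrogenase gene RDH10, with 116 CPM at E125 and 34.8 CPM at E85 (ratio 3.34). Of the remaining regulators 4 were measured, 3 of them higher and 0 lower, with the same 17.9% higher over all features. Among them were CTCF, whose protein bounds chromatin domains within HOX clusters, with 133 CPM at E125 and 31.5 CPM at E85 (ratio 4.21), and YY1 with 272 and 84.3 CPM (ratio 3.23). In surface-epithelium-like, pregranulosa-like and endothelial-like cells 2 of 2 measured genes of these remaining regulators were higher. All features gave 13.7%, 14.3% and 20.2% higher in the same order. Germ-cell-like droplets had 1 higher and 1 lower of 4. No CDX or other ParaHox gene was measured in any class compared. In germ-cell-like droplets the Polycomb list had 3 genes higher and 2 lower of 14 measured, and in pregranulosa-like cells it had 6 higher and 0 lower of 14. All features gave 19.2% higher and 17.8% lower in germ-cell-like droplets, and 14.3% and 11.3% in pregranulosa-like cells. Surface-epithelium-like cells had 5 higher and 0 lower of 12 Polycomb genes, where all features gave 13.7% and 7.98%. Endothelial-like cells had 5 higher and 0 lower of 14, where all features gave 20.2% and 7.50%. Beside the same shares over all features, the retinoid list had 1 higher and 4 lower of 6 measured in pregranulosa-like cells. It had 1 and 3 of 8 in endothelial-like cells, 1 and 2 of 8 in surface-epithelium-like cells and 3 and 1 of 10 in germ-cell-like droplets. Its median log2 ratios were -1.42, -0.58, -0.05 and 0.25 in the same order.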

How the data were processed

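Per the labels' protocols, fetal goat ovaries at E125 and E85 were dissociated and loaded on 10x Genomics droplets, 1 library per stage. The authors deposited raw UMI counts per gene and barcode. The submitters' processing notes name Cell Ranger 3.1, while the file headers name 6.0.0; build and annotation were not given in the sources used, and no coordinates are printed.

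Barcodes with 500 or more genes and at most 20% mitochondrial counts were kept (809 at E125 and 425 at E85 were not). Scrublet's own threshold called 0 barcodes at E125 and 2 at E85, so the highest scores were removed instead, at 0.8% per 1000 barcodes (557 at E125 and 155 at E85). Cells were clustered with scanpy 1.11.5 (Python 3.11.15) on 2000 variable genes without HOX or related genes, with 30 principal components, 15 neighbours and Leiden resolution 1. Clusters were named by mean marker share, from 12 marker lists, with a minimum of 0.25 that was set after the clusters were seen.

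UMIs were summed per class and library and scaled to CPM. Genes with at least 50 UMIs summed over both libraries in a class count as measured, and a 2-fold difference as higher or lower. Each class compared held more UMIs at E125, so genes reached this minimum more easily through E125. How far this raised the counts of higher HOX genes was not tested in any class. A zero is taken as at most 3 counts. Intervals are exact Poisson, exact conditional or Clopper-Pearson at 95%. Named genes are the 12 most counted, those 2-fold apart in stromal-like cells with an interval that leaves out 1, and up to 3 leaders of each other class; others named were chosen after their values were seen. The members and lists were chosen with earlier results of these data known. Ratios and their intervals were run on simulated Poisson counts, the error they assume. That cannot test them on UMIs gathered in few cells. Alternative scalings used edgeR 4.0.16 and DESeq2 1.42.0 in R 4.3.3.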

Additional observations from a re-analysis of the deposited data

Results flagged for a closer look

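HOX UMIs were also present in cells that no class covers and that no comparison uses. The 106 unnamed cells at E125 held 71 HOX UMIs (187 CPM), and the 220 unnamed cells at E85 held 64 HOX UMIs (65.8 CPM). There is no control sample to set these counts against. At E125, 102 of the unnamed cells formed the interferon-gene cluster, and at E85 all formed a cluster whose best marker score was for pregranulosa.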

How the results depend on the processing

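No paired analysis was possible because each stage has 1 library and the labels carry no replicate numbers. No value reversed its call. Values that moved are given by setting, as E125 over E85 ratios of summed HOX ("sum"), counts of HOX genes 2-fold higher or lower at E125, or class over stromal-like ratios; the cause was not tested. Counts of genes also drop where few cells or UMIs are left. With the stricter cell filter, surface-epithelium-like cells (63 at E125, 320 otherwise) had 0 higher and a sum of 1.34, pregranulosa-like cells 0 higher and endothelial-like cells 1 higher, and E125 ratios over stromal-like cells were 0.488 for surface epithelium and 0.987 for germ cells. With no cell filter, the pregranulosa-like sum was 1.55 and its E125 ratio over stroma 0.315. With no doublet removal, surface epithelium (25 E125 cells) had 0 higher, a sum of 2.99 and an E125 ratio of 1.06, pregranulosa a sum of 1.503 and a ratio of 0.313, and endothelium 1 higher. At resolution 0.5, pregranulosa had a sum of 1.70 and a ratio of 0.309. At resolution 2, the stromal-like sum was 1.17, surface epithelium (23 E125 cells) had 0 higher, a sum of 2.72 and a ratio of 0.893, pregranulosa 0 higher, and germ cells a ratio of 0.854. With separate clustering, the stromal-like sum was 1.16, pregranulosa had 0 higher and germ cells a ratio of 0.855. With HOX and related genes kept in the clustering, surface epithelium (30 E125 cells) had 0 higher and a ratio of 0.734, and pregranulosa a sum of 1.62 and a ratio of 0.311. Naming by log fold gave 1 higher in endothelium and no E125 surface-epithelium-like cells. A naming minimum of 0.3, added after seeing the data, gave a stromal-like sum of 1.17 and a germ cell ratio of 0.853. TMM and DESeq2 size factors each gave 1 higher in endothelium, where they shifted the median of all genes by -0.13 and -0.15. The mean over cells gave sums of 1.16 in stroma, 2.18 in surface epithelium and 1.66 in germ cells, with 2 higher and 1 lower in germ cells, and E125 ratios of 0.735, 0.552 and 0.668 for surface epithelium, endothelium and germ cells. In germ cells it also moved HOXA4 to 0.218 (1.32 otherwise), HOXC9 to 1.47 and HOXC13 to 7.30. Thinning to 2000 UMIs gave 1 higher in surface epithelium and 0 in pregranulosa, endothelium and germ cells, sums of 0.789 in pregranulosa and 1.52 in germ cells, E125 ratios of 0.781, 0.195 and 0.780 for surface epithelium, pregranulosa and germ cells, and E85 ratios of 0.269 and 0.557 for pregranulosa and germ cells. A minimum of 10 summed UMIs gave 10 higher in stroma (4 with a minimum of 50), 2 higher in pregranulosa, and 1 lower each in endothelium and germ cells. A 1.5-fold threshold gave 5 higher in surface epithelium. In all, 58 of these values moved and 262 stayed, as did 231 of 240 values of single genes. Germ-cell-like droplets of 20000 or more UMIs alone, also added later, moved none.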

Other observations

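Glia-like cells had the highest summed HOX level of any named class at E125, with 78 UMIs among 76 cells (396 CPM, 313 to 494), 1.54 times the stromal-like level (1.22 to 1.93). HOXB genes held 53.8% of these UMIs. HOXB7 had 21 UMIs (107 CPM), HOXC9 13 (66.0 CPM), HOXB2 11 (55.9 CPM) and HOXB9 10 (50.8 CPM). At E85 only 3 glia-like cells were found, with 1 HOX UMI.

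Perivascular-like cells had 92 HOX UMIs at E125 (145 CPM) and 11 at E85 (87.2 CPM). The 31 steroidogenic-like cells at E85 had 11 HOX UMIs (213 CPM), of which 7 were HOXC4.

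Across the 38 genes, the profiles of a class at the 2 stages had a Pearson r of log levels of 0.92 in surface-epithelium-like, 0.85 in pregranulosa-like, 0.79 in stromal-like, 0.78 in germ-cell-like and 0.74 in endothelial-like cells. Between germ-cell-like droplets and stromal-like cells r was 0.47 at E125 and 0.25 at E85. These are descriptions over genes, which are not independent.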
